A study of Homo sapiens with 7 samples.

Results

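The forkhead (FOX) genes encode transcription factors that share a winged-helix DNA-binding domain and are sorted by letter into subfamilies. Entries on the assembled chromosomes were taken whose symbol was FOX with a letter from A to S and a number, and FOXA1, FOXA2, FOXD3 and FOXH1 were left out. This gave 45 genes, each with a single entry, of 49 with such names and of 20187 chromosome entries in all. The family holds several well-studied branches. FOXO proteins are switched off by insulin and AKT signalling and act in stress resistance and cell survival, FOXM1 drives genes of mitosis, and FOXJ1 sets up motile cilia. FOXC, FOXD and FOXF proteins pattern the mesoderm and mesenchyme of the embryo, and several of their genes carry Polycomb marks in human embryonic stem cells (hESCs).

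The samples came from a series on JMJD3 (KDM6B), an enzyme that removes the repressive Polycomb mark H3K27me3. The cells sequenced were hESCs of the SEES-3 line with a Tet-On system, made up of a reverse Tet-transactivator and a Tet-responsive transgene delivered by piggyBac. In JMJD3c-hESCs the transgene encoded the tagged catalytic region of JMJD3, and in JMJD3c mut-hESCs the same region with a point mutation that removes catalytic activity. Both were stable clones picked under puromycin, so a difference between the lines cannot be told apart from a difference between clones. JMJD3c-hESCs were collected without doxycycline (Dox) at Day 0 and on Days 1, 2, 3 and 4 of Dox at 1 µg/ml, and JMJD3c mut-hESCs without Dox and at Day 4 of the same dose. Each of the 7 conditions had 1 library, so no difference has a replicate check and no test between conditions was made. All comparisons with Day 0 share that library, and the comparison of the lines at Day 4 shares the Day 4 library.

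Levels are FPKM, a read count scaled to exon length and to library size, given with the 95% interval that Cufflinks estimated within the library. With the cutoffs of the study, an upregulated gene had over 2 times its untreated level and passed 4 FPKM after treatment. A downregulated gene passed 4 FPKM without treatment and kept under 0.5 of that level. Depth was estimated at 1780000 reads at Day 0, the lowest, and at 3660000 reads in the untreated mutant line, the highest. KDM6B, which includes transgene reads, was at 3.45 FPKM at Day 0 and 158 to 282 FPKM on Days 1 to 4, and went from 2.40 to 454 FPKM in the mutant line. All 10 pluripotency markers examined were detected in every library, with a summed level of 2902 FPKM at Day 0 and 2016 FPKM at Day 4, and of 2660 FPKM without and 2316 FPKM with Dox in the mutant line. The summed level of 10 mesendoderm markers went from 6.09 to 310 FPKM between Day 0 and Day 4 and from 12.7 to 7.85 FPKM in the mutant line.

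Most forkhead genes were silent or nearly so in these cells. Of the 45 genes, 36 were above 0 FPKM in any library (83.2% of all genes) and 21 in every library (65.5%). Above 1 FPKM were 21 in any library (67.6% of all genes) and 16 in every library (54.4%), and above 4 FPKM were 17 in any library (53.9%) and 10 in every library (41.4%). The expressed genes were mainly those with broad roles. Among 13 such genes (the FOXJ2, FOXJ3, FOXK, FOXM, FOXN2, FOXN3 and FOXO genes with FOXP1 and FOXP4) 12 exceeded 4 FPKM in at least 1 library, against 5 of the other 32, namely FOXA3, FOXB1, FOXC1, FOXD1 and FOXJ1. FOXM1 had the highest level of any member, 50.1 FPKM at Day 4.

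**Figure D1:**
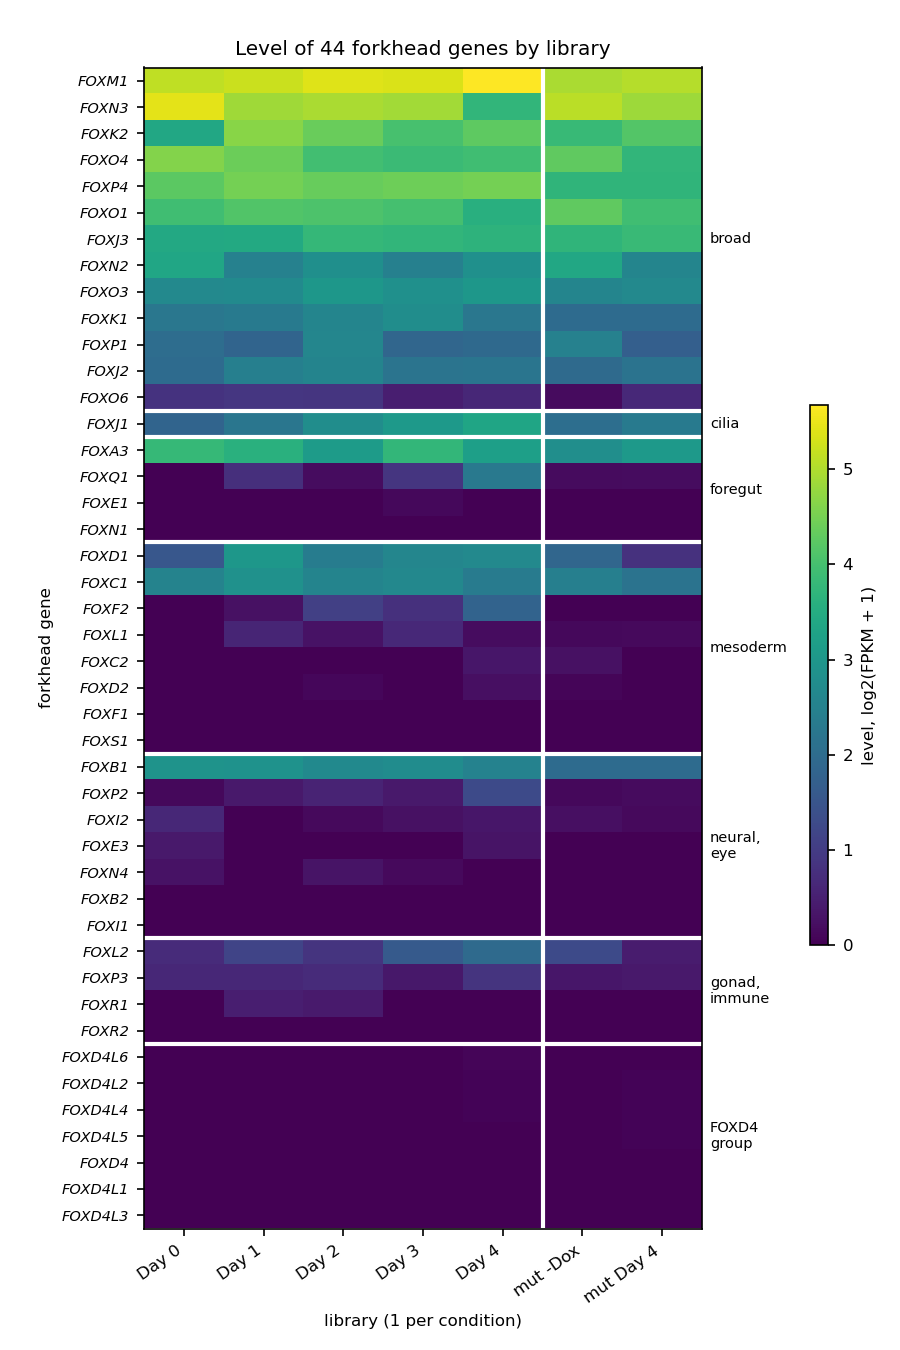
Level of 44 of the 45 forkhead genes as log2(FPKM + 1) (colour) in the 7 libraries (columns; the white vertical line separates JMJD3c-hESCs from JMJD3c mut-hESCs), grouped by role. The broadly expressed genes at the top were above 1 FPKM in 12 of 13 cases, and the FOXD4 group at the bottom stayed at or below 0.0542 FPKM.

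Few forkhead genes passed the cutoffs with Dox. At Day 4 against Day 0, 2 of 45 genes were upregulated, FOXJ1 and FOXD1, where 2.98% of all genes were, and 1 was downregulated, FOXN3, where 3.84% of all genes were. A count of 2 in 45 is close to that background and is not a result about the family. The earlier days gave 2 upregulated genes at Day 1 (FOXD1 and FOXK2, 1.76% of all genes), 3 at Day 2 (FOXD1, FOXJ1 and FOXK2, 1.97%) and 2 at Day 3 (FOXD1 and FOXJ1, 2.4%). Downregulated genes numbered 0 at Days 1 and 2 (1.65% and 2.14% of all genes) and 1 at Day 3, FOXN2 (2.28%). In the mutant line Dox gave 0 upregulated genes (0.604% of all genes) and 1 downregulated gene, FOXP1 (0.738%). The median log2 fold change over all 45 genes was 0 in both lines, as it was over all genes, and over the 18 members with a mean above 1 FPKM it was 0.12 in the JMJD3c line.

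FOXJ1, the master regulator of motile ciliogenesis, climbed day by day. Its level was 2.53 FPKM at Day 0 and 3.69, 5.85, 7.27 and 9.09 FPKM on Days 1 to 4, whereas JMJD3c mut-hESCs had 3.13 FPKM without Dox and 4.09 FPKM with it. It was the 1 member that went up at every step from Day 0 to Day 4, a pattern that 2.12% of all genes had, and 0 members went down at every step (2.28% of all genes). The intervals of Day 0 (1.06 to 3.83 FPKM) and Day 4 (6.52 to 11.5 FPKM) did not overlap. The Day 4 to Day 0 ratio was 3.58, and the FPKM values matched 54 and 11 whole reads, which give a counting interval of 1.85 to 7.60. In the mutant line the ratio was 1.31, from 32 and 28 reads, with an interval of 0.763 to 2.25. Between the lines at Day 4 the ratio was 2.22, with an interval of 1.41 to 3.55. These intervals cover counting error only.

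Most ciliary genes that FOXJ1 is known to switch on were below 4 FPKM at Day 0 and Day 4, where no call was possible. Of 18 ciliary targets found, 1 was upregulated at Day 4, DNALI1, a dynein light intermediate chain of the axoneme, and 0 were downregulated. DNALI1 was at 2.33, 2.76, 5.41, 5.69 and 7.17 FPKM from Day 0 to Day 4. In the mutant line, where it was called downregulated, it went from 4.48 to 1.91 FPKM. With 10 of the 18 genes higher and 4 lower, their median log2 fold change came to 0.05. In the mutant line 10 were also higher and 4 lower, with a median of 0.17. Below the cutoff, SPAG6 had the largest rise of the list, with 0, 0, 0.808, 1.16 and 3.10 FPKM from Day 0 to Day 4. The mutant line had 0 FPKM of SPAG6 without and 0.627 FPKM with Dox.

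FOXD1, a gene of the kidney stroma and of other mesenchyme, was higher in all 4 Dox libraries of the JMJD3c line. Its levels were 1.90, 7.07, 4.20, 5.06 and 5.36 FPKM from Day 0 to Day 4. In the mutant line it was at 2.64 FPKM without Dox and 0.754 FPKM with it. The values matched 7, 39, 28, 36 and 27 reads from Day 0 to Day 4. In JMJD3c mut-hESCs they matched 20 reads before and 5 reads after Dox. The ratio was 3.72 at Day 1 (counting interval 1.64 to 9.85) and 2.82 at Day 4 (1.20 to 7.66). For JMJD3c mut-hESCs the ratio was 0.286, with an interval of 0.0839 to 0.786, which lies below 1. Since the FPKM of the mutant line without Dox was under the cutoff, that drop was not called. Against the untreated mutant line instead of Day 0, the ratio was 2.68, 1.59, 1.92 and 2.03 on Days 1 to 4, so the calls of Days 2 and 3 were lost. The Day 4 interval was then 1.10 to 3.82. An antisense gene, FOXD1-AS1, is annotated beside it, and the strand setting of mapping and counting was not given in the sources used here, so reads from the pair cannot be told apart.

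FOXN3, a transcriptional repressor that acts in cell cycle checkpoints, was the 1 forkhead gene called downregulated at Day 4. It was at 42.4 FPKM at Day 0, 28.0, 30.01 and 28.5 FPKM on Days 1 to 3 and 12.4 FPKM at Day 4, with 33.0 and 27.9 FPKM in the mutant line without and with Dox. Day 4 was the lowest of the 7 libraries, and the other 6 lay between 27.9 and 42.4 FPKM. The Day 4 interval (9.58 to 20.6 FPKM) lay below those of Day 0 (28.1 to 58.5 FPKM) and, by a narrow margin, of the mutant at Day 4 (20.7 to 35.3 FPKM). It overlapped those of Day 2 (20.02 to 42.5 FPKM) and Day 3 (17.5 to 39.6 FPKM). The ratio was 0.292 against Day 0 and 0.443 against the mutant at Day 4, and the mutant line gave 0.845 with Dox. Antisense genes FOXN3-AS1 and FOXN3-AS2 are annotated at this locus, with the same limit on strand.

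**Figure D2:**
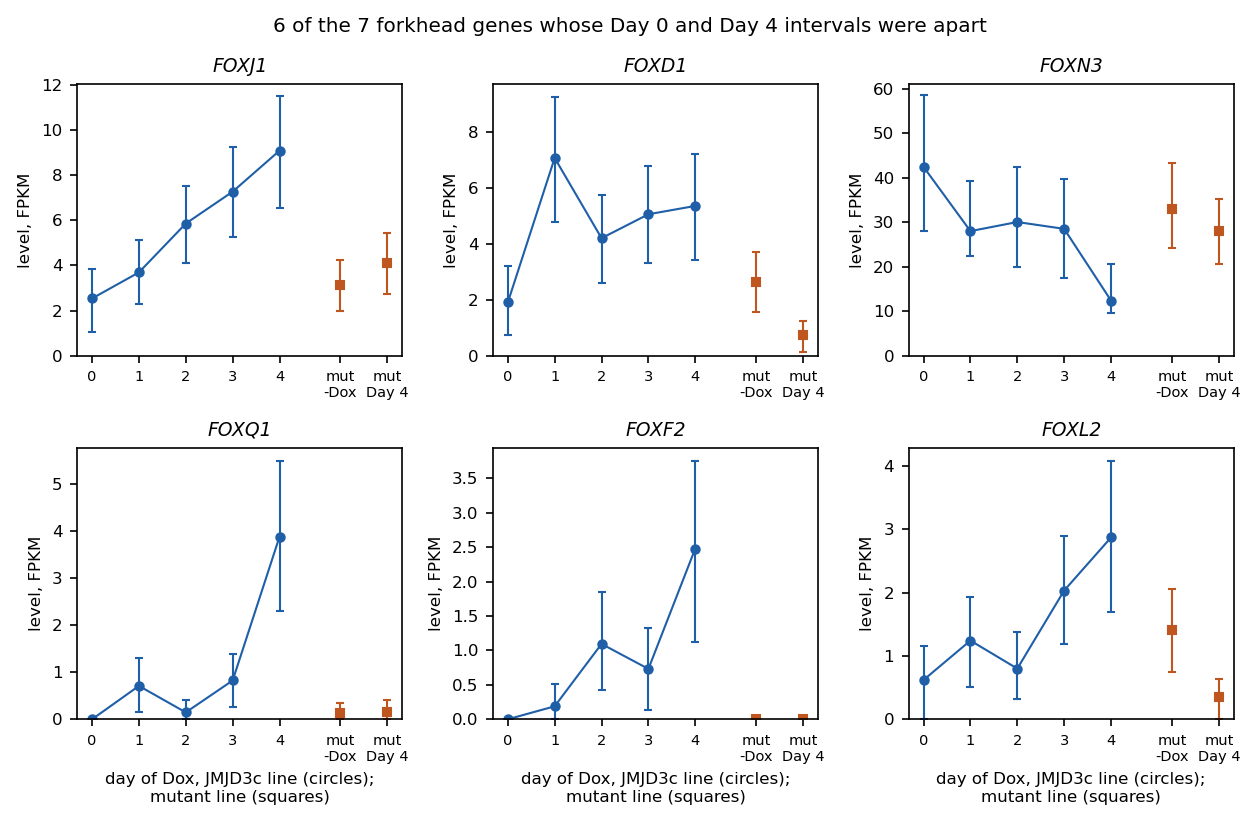
Level in FPKM (vertical axes, from 0) of 6 forkhead genes by day of Dox in JMJD3c-hESCs (blue circles) and in JMJD3c mut-hESCs without Dox and at Day 4 (orange squares), 1 library per point, with the 95% interval that Cufflinks gave. FOXJ1 climbed from 2.53 to 9.09 FPKM, FOXN3 was lowest at Day 4, and FOXQ1 and FOXF2 were near 0 in the mutant line.

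At the lower levels, 3 further genes had Day 4 intervals above those of Day 0 without passing the cutoff of 4 FPKM. They were FOXQ1, FOXF2 and FOXL2, and with FOXJ1 and FOXD1 they made 5 of 45 genes, where 3.12% of all genes had such intervals. FOXN3 and FOXO4 had intervals below, 2 of 45 against 3.82% of all genes. Cufflinks gave an interval from 0 to 0 to genes at 0 FPKM, so for FOXQ1 and FOXF2 the Day 0 interval adds no error. In the mutant line 0 genes had higher intervals with Dox (0.758% of all genes) and 4 had lower ones, FOXD1, FOXL2, FOXN2 and FOXO1 (1.02%).

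FOXQ1 and FOXF2 are neighbours of FOXC1 on chromosome 6, and the 3 genes form a forkhead cluster at 6p25. In hg19, as the files give it, FOXQ1 lies at chr6:1312675-1314992, FOXF2 starts 77.394 kb further on (chr6:1390069-1395832) and FOXC1 298.006 kb further on (chr6:1610681-1614127). The 250 bases before each annotated start are shown because the genes sit side by side yet differed in level. They are from RefSeq on GRCh38.p14, plus strand, at chr6:1311848-1312097, chr6:1389326-1389575 and chr6:1609665-1609914, with each CpG dinucleotide in capitals.
FOXQ1: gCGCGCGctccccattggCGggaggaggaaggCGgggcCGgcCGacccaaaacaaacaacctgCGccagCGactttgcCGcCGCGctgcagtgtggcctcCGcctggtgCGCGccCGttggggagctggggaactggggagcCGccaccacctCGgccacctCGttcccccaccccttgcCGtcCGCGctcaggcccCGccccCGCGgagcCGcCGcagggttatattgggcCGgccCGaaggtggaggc
FOXF2: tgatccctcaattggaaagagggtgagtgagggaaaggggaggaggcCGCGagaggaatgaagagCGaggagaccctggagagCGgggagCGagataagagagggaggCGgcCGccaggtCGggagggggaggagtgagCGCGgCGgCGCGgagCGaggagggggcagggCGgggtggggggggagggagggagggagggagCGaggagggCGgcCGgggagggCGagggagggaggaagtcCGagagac
FOXC1: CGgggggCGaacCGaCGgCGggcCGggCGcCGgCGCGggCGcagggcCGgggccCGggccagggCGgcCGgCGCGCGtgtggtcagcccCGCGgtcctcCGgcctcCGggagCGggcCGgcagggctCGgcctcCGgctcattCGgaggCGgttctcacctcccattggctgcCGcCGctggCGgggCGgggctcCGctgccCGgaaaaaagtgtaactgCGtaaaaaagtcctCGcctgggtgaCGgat
The windows hold 29, 20 and 37 CpG, in the order FOXQ1, FOXF2, FOXC1. Polycomb complexes are known to occupy CpG-rich promoters of silent developmental genes, but no mark was measured in these libraries. The study measured H3K27me3 by ChIP-seq in JMJD3c-hESCs with and without Dox, and those data were not used here.

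FOXQ1, a factor of epithelial and gut development, was at 0, 0.709, 0.147, 0.824 and 3.88 FPKM from Day 0 to Day 4. Both mutant libraries were low, with 0.129 and 0.147 FPKM. In whole reads this was 0, 4, 1, 6 and 20 from Day 0 to Day 4 and 1 in each mutant library. Against a floor of 3 reads at Day 0, which equals 0.797 FPKM, the Day 4 level was at least 4.87-fold higher. With the counting error of both libraries included, the lower limit of the ratio was 3.61. Against the mutant line at Day 4 the ratio was 26.3, with a counting interval of 4.21 to 1090 that reflects the single read there.

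FOXF2, which acts in the mesenchyme of the gut and palate, was at 0, 0.189, 1.09, 0.732 and 2.48 FPKM from Day 0 to Day 4 and at 0 in both mutant libraries. The Day 4 library was again the highest, and the Day 1 interval (0 to 0.514 FPKM) reached down to 0. The values matched 0, 1, 7, 5 and 12 reads. The Day 4 level was at least 2.92-fold higher than the Day 0 floor of 0.849 FPKM and at least 5.26-fold higher than the floor of the mutant at Day 4, 0.472 FPKM. With the counting error of both libraries the lower limits were 2.03 and 3.65.

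FOXC1, the third gene of the cluster and a regulator of eye, heart and skeletal mesoderm, was already present. It was at 4.85, 6.36, 4.88, 5.28 and 4.17 FPKM from Day 0 to Day 4 and at 4.45 and 3.46 FPKM in the mutant line. The Day 4 to Day 0 ratio was 0.861, with a counting interval of 0.504 to 1.48 from 33 and 28 reads. The interval spans 1, and a ratio of 2 lies outside it. The paralogous cluster at 16q24, FOXF1, FOXC2 and FOXL1, did not exceed 0.584 FPKM in any library, and FOXF1 was at 0 throughout.

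FOXL2, known from the ovary and eyelid, was higher with Dox in the JMJD3c line and lower with Dox in the mutant line, below the cutoff of 4 FPKM throughout. Its levels were 0.621, 1.24, 0.800, 2.03 and 2.87 FPKM from Day 0 to Day 4, and 1.41 FPKM without and 0.345 FPKM with Dox in the mutant line. Reads numbered 3, 9, 7, 19 and 19 in the JMJD3c line and 14 and 3 in the mutant line. The ratio was 4.62 at Day 4 against Day 0 (counting interval 1.36 to 24.4) and 0.245 in the mutant line (0.0452 to 0.879). The untreated libraries differed too, and against the untreated mutant line the Day 4 ratio was 2.04 with an interval of 0.971 to 4.40, which includes 1.

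**Figure D3:**
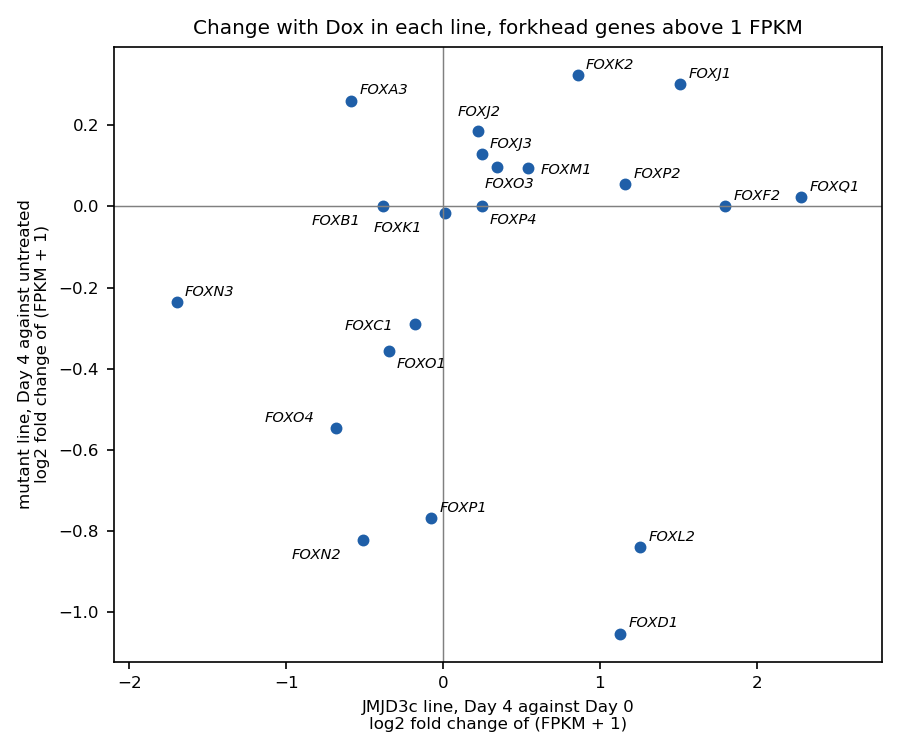
Change with Dox in the JMJD3c line (horizontal axis) and in the mutant line (vertical axis), each as the log2 fold change of FPKM + 1 from 1 library a side, for the 21 forkhead genes above 1 FPKM in any library. FOXD1 and FOXL2 lay at the lower right, higher with Dox in the JMJD3c line and lower in the mutant line, while FOXN2, FOXO1 and FOXO4 were lower in both.

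Outside the 6p25 cluster, FOXD1, FOXJ1, FOXL2, FOXM1, FOXN3 and FOXP4 had intervals apart between the lines at Day 4. FOXJ1 and FOXM1 had no promoter entry, and FOXP4 is not shown. Promoter windows of FOXD1, FOXL2 and FOXN3 are given. All are the 250 bases before the start on the minus strand, written in the direction of transcription, from RefSeq on GRCh38.p14 at chr5:73448778-73449027, chr3:138947138-138947387 and chr14:89619166-89619415, with CpG in capitals.
FOXD1: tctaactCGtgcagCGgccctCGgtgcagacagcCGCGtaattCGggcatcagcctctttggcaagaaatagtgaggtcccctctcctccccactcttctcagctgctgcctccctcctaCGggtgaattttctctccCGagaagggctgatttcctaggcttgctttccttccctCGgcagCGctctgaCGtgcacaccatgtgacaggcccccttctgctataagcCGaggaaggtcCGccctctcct
FOXL2: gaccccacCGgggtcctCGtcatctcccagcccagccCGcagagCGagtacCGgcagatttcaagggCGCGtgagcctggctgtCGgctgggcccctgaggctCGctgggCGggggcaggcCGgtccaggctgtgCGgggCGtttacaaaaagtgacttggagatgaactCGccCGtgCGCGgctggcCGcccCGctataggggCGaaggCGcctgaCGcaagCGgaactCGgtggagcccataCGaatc
FOXN3: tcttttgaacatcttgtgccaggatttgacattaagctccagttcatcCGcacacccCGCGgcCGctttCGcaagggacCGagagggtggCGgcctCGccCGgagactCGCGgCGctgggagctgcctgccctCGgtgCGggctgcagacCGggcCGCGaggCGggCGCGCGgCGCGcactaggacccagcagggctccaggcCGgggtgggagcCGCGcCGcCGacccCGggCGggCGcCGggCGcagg
They hold 13, 25 and 33 CpG. Of the 45 genes, 35 had an entry in the promoter table, with 46 windows, each again the 250 bases before a start. The median count of CpG was 17.5 in the members' windows and 11 in all 35116 windows. It was 29.5 in the 24 windows of 14 genes that exceeded 4 FPKM in any library and 13 in the windows of 17 genes that stayed under 1 FPKM. Genes with several starts, among them FOXP1, FOXO3 and FOXJ3, counted more than once, and the 17 genes include near-identical copies of the FOXD4 group. FOXF1, FOXC2, FOXL1 and FOXS1 had no entry. The forkhead core motif TGTTTAC, searched on both strands, was in 2.98% of all windows and in 1 of the 46 member windows, 1 of several at FOXP1. The T-box motif AGGTGTGA was found in 0.786% of all windows and at FOXB1, the GATA motif AGATAA in 9.17% and at FOXF2, FOXP2 and FOXR2, and TATAAA in 10.7% and at 6 members. The TCF motif CTTTGAT was in 2.26% of all windows and in 0 of the members' windows. These matches describe letters in a window and do not show binding.

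The FOXO genes, effectors held in check by insulin and AKT signalling, were lower with Dox in both lines when summed. FOXO1, FOXO3, FOXO4 and FOXO6 together made 43.9 FPKM at Day 0 and 32.8 at Day 4, and 42.3 FPKM without and 32.7 with Dox in the mutant line. FOXO4 was at 23.4, 20.1, 14.6, 13.5 and 14.2 FPKM from Day 0 to Day 4 and at 18.6 and 12.4 FPKM in the mutant line. Its Day 4 interval (10.8 to 17.7 FPKM) lay below that of Day 0 (18.9 to 28.1 FPKM), while the intervals of the mutant libraries overlapped slightly. The ratios, 0.605 and 0.668, did not reach the cutoff.

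FOXO1, which is known to support pluripotency genes in hESCs, was at 14.3, 16.6, 16.2, 15.1 and 11.0 FPKM from Day 0 to Day 4 and at 18.6 and 14.3 FPKM in the mutant line. The ratio with Dox was 0.772 in the JMJD3c line and 0.769 in the mutant line. FOXO3, a regulator of stress response and autophagy, was at 5.33, 5.61, 7.05, 6.24 and 7.03 FPKM and at 4.98 and 5.39 FPKM in the mutant line. Its Day 0 and Day 4 intervals overlapped. Reads from its near-identical copy FOXO3B may be mixed with it.

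Genes around the FOXO proteins were mostly below the cutoffs. Of 20 FOXO target genes, 1 was upregulated at Day 4, GADD45A, a stress-induced growth arrest gene (4.68 to 9.83 FPKM). Downregulated were 2, KLHL24 (7.45 to 2.60 FPKM) and the insulin receptor gene INSR (4.89 to 2.39 FPKM). Of the 20, 0 had a Day 4 interval above that of Day 0, GADD45A included, and 1 had a lower one. With the untreated mutant line (6.75 FPKM) as the reference, GADD45A would not be called. Over the 20 targets the log2 fold change had a median of -0.21, and the same median, with 0 genes called, in JMJD3c mut-hESCs. Of 20 regulators of FOXO proteins, 1 was downregulated, SGK1, a kinase that phosphorylates FOXO proteins. SGK1 was at 23.6, 16.6, 11.7, 6.87 and 7.22 FPKM from Day 0 to Day 4 and at 19.5 and 15.0 FPKM in the mutant line. In JMJD3c mut-hESCs 1 regulator was called with Dox, PIK3CA, upregulated from 1.93 to 4.46 FPKM.

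FOXM1, the activator of mitotic genes, was at 34.0, 36.3, 41.3, 39.7 and 50.1 FPKM from Day 0 to Day 4 and at 30.0035 and 32.1 FPKM in the mutant line. Day 4 was the highest library, with a ratio of 1.47 to Day 0 and 1.56 to the mutant at Day 4. The Day 4 interval (40.6 to 59.6 FPKM) overlapped slightly with that of Day 0 (26.9 to 41.2 FPKM) and was apart from that of the mutant at Day 4 (27.4 to 36.8 FPKM). Its target genes stayed within the cutoffs. Of 18 targets such as PLK1, CCNB1 and AURKB, 0 were called at Day 4, and 14 had a level below that of Day 0. Over all 18 the log2 fold change had a median of -0.17. AURKB, a mitotic kinase gene, was at 112 FPKM at Day 0 and 79.1 FPKM at Day 4.

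FOXK2, a broadly expressed factor tied to glucose metabolism, was lowest at Day 0. It was at 9.60, 24.4, 19.8, 15.4 and 18.2 FPKM from Day 0 to Day 4 and at 13.2 and 16.8 FPKM in the mutant line. It was called at Day 1 (ratio 2.54) and Day 2 (2.07), and at Day 4 the ratio of 1.90 was just under the cutoff. Measured against the untreated mutant line the Day 1 ratio was 1.85 and that of Day 2 lower still, so neither call held. The Day 0 library was also the shallowest, and the part of depth was not tested.

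FOXN2, a poorly characterised relative of FOXN3, was lower with Dox in both lines. It was at 9.24, 4.62, 6.12, 4.58 and 6.18 FPKM from Day 0 to Day 4, and at 9.56 FPKM without and 4.97 FPKM with Dox in the mutant line. Both untreated libraries were above all 5 Dox libraries, an order whose share among all genes was not counted. The ratio was 0.495 at Day 3, where it was called, and 0.520 in the mutant line, where the intervals (6.87 to 12.2 and 3.59 to 6.41 FPKM) were apart without passing the ratio. In the JMJD3c line the Day 0 interval (4.24 to 14.3 FPKM) overlapped that of Day 3 (3.24 to 5.92 FPKM) and of every other Dox day.

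**Figure D4:**
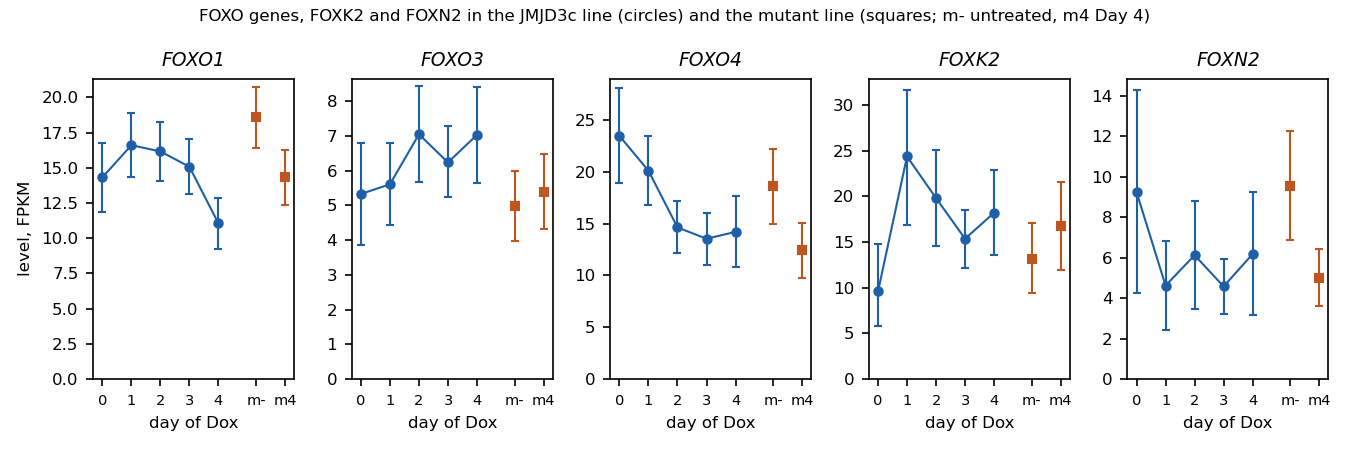
Level in FPKM (vertical axes, from 0) of FOXO1, FOXO3, FOXO4, FOXK2 and FOXN2 by day of Dox in JMJD3c-hESCs (blue circles) and in JMJD3c mut-hESCs (orange squares; m- untreated, m4 Day 4), 1 library per point, with the 95% interval that Cufflinks gave. FOXO1, FOXO4 and FOXN2 were lower at Day 4 than without Dox in both lines, and FOXK2 was lowest at Day 0.

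Among the FOXP genes, FOXP1, a factor with a stem-cell splice form, was called downregulated in the mutant line, from 4.63 to 2.31 FPKM. The intervals, 2.28 to 7.17 and 1.00 to 5.80 FPKM, overlapped widely. In the JMJD3c line it was at 3.06, 2.54, 5.04, 2.69 and 2.86 FPKM, with Day 2 the highest. FOXP4, which acts in lung and gut epithelium, was at 18.0, 21.4, 19.3, 20.6 and 21.5 FPKM from Day 0 to Day 4 and at 12.1 and 12.2 FPKM in the mutant line. Its level thus differed between the lines and hardly with Dox, though the intervals of the untreated libraries (13.5 to 22.8 and 9.45 to 14.8 FPKM) overlapped. FOXP4-AS1 is annotated beside it. FOXP2, known for its part in speech, fell outside the naming rule and is given after its values were seen. It was at 0.0902 FPKM at Day 0 and 1.44 FPKM at Day 4, with widely overlapping intervals (0 to 4.63 and 0.0660 to 5.33 FPKM). The mutant line had 0.0876 FPKM without and 0.129 FPKM with Dox.

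Besides FOXP4, 4 genes had all 5 JMJD3c libraries above both mutant libraries, namely FOXM1, FOXA3, FOXB1 and FOXK1. These 5 of 45 compare with 10.4% of all genes, a share near the background, and 0 of 45 had the opposite order (8.97% of all genes). FOXA3, a liver and gut factor, was at 12.9, 11.1, 7.64, 12.4 and 8.27 FPKM and at 5.95 and 7.33 FPKM in the mutant line. FOXB1, a gene of the neural tube and hypothalamus, was at 6.50, 6.38, 5.49, 5.73 and 4.75 FPKM against 2.97 FPKM in both mutant libraries. With the untreated mutant line as the reference, Day 0 of the JMJD3c line passed the cutoffs for FOXA3 and FOXB1, 2 of 45 genes where 3.49% of all genes did, and 0 passed in the other direction (1.38%). The untreated intervals overlapped for FOXA3 (7.86 to 18.1 and 3.51 to 8.50 FPKM) and for FOXB1 (3.70 to 9.41 and 1.63 to 4.24 FPKM). At Day 4 both were below their own Day 0 level, with overlapping intervals.

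**Figure D5:**
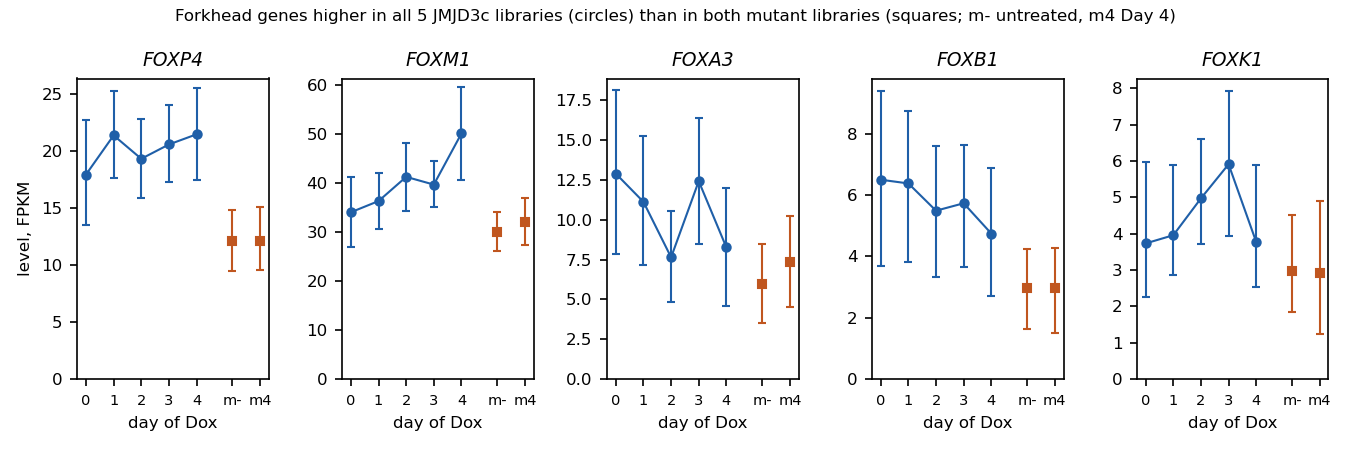
Level in FPKM (vertical axes, from 0) of the 5 forkhead genes that were higher in all 5 JMJD3c libraries (blue circles, by day of Dox) than in both mutant libraries (orange squares; m- untreated, m4 Day 4), with the 95% interval that Cufflinks gave. FOXP4 was at 18.0 to 21.5 FPKM in the JMJD3c line and at 12.1 and 12.2 FPKM in the mutant line.

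The remaining broadly expressed genes were not called in any comparison. FOXJ2 was at 2.96, 4.44, 4.87, 3.55 and 3.62 FPKM from Day 0 to Day 4 and at 2.92 and 3.46 FPKM in the mutant line. FOXJ3 was at 9.75, 9.90, 12.8, 12.3 and 11.7 FPKM and at 12.1 and 13.3 FPKM. FOXK1, a relative of FOXK2, was at 3.74, 3.96, 4.98, 5.91 and 3.77 FPKM and at 2.98 and 2.93 FPKM. FOXK1 had the widest range of the 3, from 2.93 FPKM in the mutant at Day 4 to 5.91 FPKM at Day 3 of the JMJD3c line.

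The lines were also compared at Day 4, when both had received Dox. Against the mutant at Day 4, the JMJD3c line had 2 upregulated genes, FOXD1 and FOXJ1 (3.25% of all genes), and 1 downregulated gene, FOXN3 (1.49%). Intervals were apart and higher for 7 of 45 genes, FOXD1, FOXF2, FOXJ1, FOXL2, FOXM1, FOXP4 and FOXQ1 (4.24% of all genes), and lower for FOXN3 alone (4.61%). The median log2 fold change over the 18 members with a mean above 1 FPKM was 0.24, beside -0.01 over the 12373 genes of all kinds with such a mean. Of the 18 members 15 were higher and 3 lower, and the matching share of all genes was not counted. The 15 include FOXA3, FOXB1, FOXK1, FOXM1 and FOXP4, which were above both mutant libraries in all 5 JMJD3c libraries, Day 0 included.

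The other 24 genes did not exceed 1 FPKM in any library, and 9 of them were at 0 in all 7, namely FOXB2, FOXD4, FOXD4L1, FOXD4L3, FOXF1, FOXI1, FOXN1, FOXR2 and FOXS1. At this depth a silent gene cannot be separated from one with a few reads: for FOXF1 the floor of 3 reads equals 0.508 FPKM at Day 0. FOXO6 reached 0.854 FPKM, the highest of the 24. The 7 genes of the FOXD4 group are near-identical copies of each other, so their values are uncertain. The eye gene FOXE3 and the mesoderm gene FOXC2 had at most 0.316 FPKM in any library.

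Marker genes of several cell types also differed between Day 0 and Day 4 of the JMJD3c line. Of 10 mesendoderm markers 9 were upregulated at Day 4, and in the neuroectoderm list 2 of 8 were, PAX6 and ZIC1. In the list for paraxial and lateral mesoderm, 0 of 10 were upregulated and 1 was downregulated, KDR, from 13.1 to 3.79 FPKM. The summed level of that list was 15.4 FPKM at Day 0 and 9.81 FPKM at Day 4, and 2.31 and 6.02 FPKM without KDR. Below the cutoff, PDGFRA was at 0.222 FPKM at Day 0 and at 3.82 FPKM on Day 4, most of the Day 4 sum without KDR. Their part in the forkhead levels was not tested. In bulk RNA, fewer cells that express a gene and less RNA per cell cannot be told apart.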

How the data were processed

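RNA-seq of 7 samples of poly(A) RNA, read as single ends of 150 bases, was analysed. Per the study's methods and the submitters' processing notes, the authors used CASAVA 1.4, mapped reads to hg19 with TopHat2 2.0.13 and estimated FPKM per gene with Cufflinks 2.1.1. The deposited FPKM values and their 95% bounds were used as given. The library kit was directional, but the strand setting was not given in the sources used here.

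Samples were grouped by their labels, with 1 library per condition. Log2 fold changes used a pseudocount of 1, which understates the change of low genes. The deposited values are not counts, so library size was inferred from the smallest FPKM steps of intronless genes at gene length minus 200 bases. There, 67.0 to 81.8% of low values came out as whole reads within 0.1. A step was taken as 1 read because reads were single-ended and because 192 values lay at 1 step but 21 at 0.5 of it. Were it 2 reads, all read counts would be 2 times as high, the floors in FPKM lower and the counting intervals narrower. Reads of FOXQ1, FOXL2, FOXC1 and FOXD1 follow from that, and those of FOXF2 and FOXJ1 are the smallest set of whole reads that gives their FPKM in all libraries. Floors are 3 reads, and 95% ratio intervals are exact binomial intervals on the reads of both libraries. Transcript models were from GENCODE 44 lifted to hg19, promoters from RefSeq on GRCh38.p14.

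The members and gene lists were chosen with earlier results of these data known. Members were named that were called in any of 6 comparisons, had 4 FPKM or more in any library, or had more than 1 FPKM with Day 0 and Day 4 intervals apart, which gave 20. Of each other list, at most 4 genes called at Day 4 were named. AURKB, PLK1, CCNB1, KDR, PDGFRA, PIK3CA and SPAG6, like the members outside the 20, were named after their values were seen. The values of 1 member are not reported here. CFAP45, of 19 ciliary genes listed, did not match a symbol. In the trophoblast and amnion list of 7, 0 were called at Day 4. The call rule was tested on simulated data. Alternatives were the cutoff, the pseudocount, median ratio scaling, intervals apart, and another untreated reference. Tables were handled in Python 3.11.15 with pandas 2.3.3, intervals in scipy 1.17.1, plots in matplotlib 3.10.9, arrays in numpy 2.4.6.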

Additional observations from a re-analysis of the deposited data

Results flagged for a closer look

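Change with Dox went in opposite directions in the lines for FOXD1 and FOXL2. The log2 fold change of FPKM + 1 in the JMJD3c line minus that in the mutant line was 2.18 for FOXD1 and 2.10 for FOXL2. Each rests on 4 libraries, and the difference was not tested. The FOXD1 values stand on 7 and 27 reads in the JMJD3c line and on 20 and 5 reads in the mutant line, and those of FOXL2 on 3 and 19 and on 14 and 3 reads.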

How the results depend on the processing

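No paired analysis was possible because each condition had 1 library and the labels carry no replicate numbers. With a cutoff of 1 FPKM in place of 4, upregulated forkhead genes numbered 6 in place of 2 both at Day 4 against Day 0 and against the mutant at Day 4 (FOXD1, FOXF2, FOXJ1, FOXL2, FOXP2 and FOXQ1; 5.93% and 6.56% of all genes), and downregulated genes in the mutant line numbered 3 in place of 1 (FOXD1, FOXL2 and FOXP1; 2.62% of all genes). When intervals also had to be apart, the count was 1 in place of 3 for Day 2 upregulated (0.594% of all genes), 0 in place of 1 for Day 3 downregulated (0.674%), and 0 in place of 1 for the mutant line downregulated (0.159%). With the untreated mutant line as the reference, an alternative for Days 1 to 3 that was chosen after seeing the data, Day 2 upregulated genes numbered 0 in place of 3 (2.95% of all genes) and Day 1 downregulated genes 1, FOXN2, in place of 0 (0.916%), while the 2 genes of Day 3 were FOXA3 and FOXJ1 in place of FOXD1 and FOXJ1. The cause was not tested. Median ratio scaling moved no library by more than a factor of 1.022 and changed no sign among the 20 named genes, pseudocounts of 0.1 and 4 changed no sign either but moved FOXQ1 from 2.29 to 5.31 and 0.98 and FOXF2 from 1.80 to 4.69 and 0.70, and the untreated mutant reference changed 3 signs at Day 4 (FOXA3, FOXB1 and FOXJ3). Fewer than 10 reads in at least 1 library of a comparison limit FOXD1, FOXF2, FOXL2 and FOXQ1. FOXP2, whose reads were not resolved to whole counts, had overlapping intervals both at Day 4 against Day 0 and against the mutant at Day 4.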
